A study of Mus musculus with 2 samples.

Results

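The C-type lectin and killer cell lectin-like receptor genes were described in open chromatin of mouse common myeloid progenitors. Members were the protein-coding genes of the GENCODE M21 annotation whose symbol starts with Clec or Klr, and there were 56 of 21938 protein-coding genes. The accessible regions examined were those within 1 kb of a start of a member and those inside the 2 runs of member genes on chromosome 6, which together came to 135 of 67395 regions. Common myeloid progenitors are bone marrow cells that give rise to red cells, megakaryocytes, granulocytes and monocytes. They were primary cells of C57BL/6J males aged 5 to 6 weeks, without treatment, and 50000 cells went into each library. ATAC-seq, in which a transposase inserts adaptors into accessible DNA, was run on 2 libraries labelled biological replicates 1 and 2. The labels give both the same donor, so the spread between them may be technical, and there was no other cell type to set them against. The deposited lists hold peaks without read counts, so the depth of the libraries is unknown.

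C-type lectins share a fold that in some members binds sugars in a calcium-dependent way and in others binds proteins. The Clec genes of myeloid cells sense fungi, mycobacteria and dying cells, and signal through Syk and Card9 or through inhibitory motifs that recruit phosphatases. The Klr genes encode receptors of natural killer cells, which in mouse include the Ly49 receptors for class I molecules of the major histocompatibility complex. Most of these genes lie together on mouse chromosome 6, in arrays made by repeated gene duplication.

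A member was called open when a region of the conservative list lay within 1 kb of a start of its protein-coding transcripts. That list holds the peaks of both replicates that passed a threshold on the irreproducible discovery rate (IDR). By this rule 25 of the 56 members were open, which is 44.6%, against 60.8% of the 21853 protein-coding genes with such a start. Of the Clec genes 18 of 30 were open, and of the Klr genes 7 of 26 (26.9%). The signal value of a peak is the authors' own, on a scale the sources used here do not state. The strongest promoter region of the 25 open members had a median signal of 10.02 and a range of 4.74 to 20.5, and the median over all open protein-coding genes was 10.4.

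**Figure D1:**
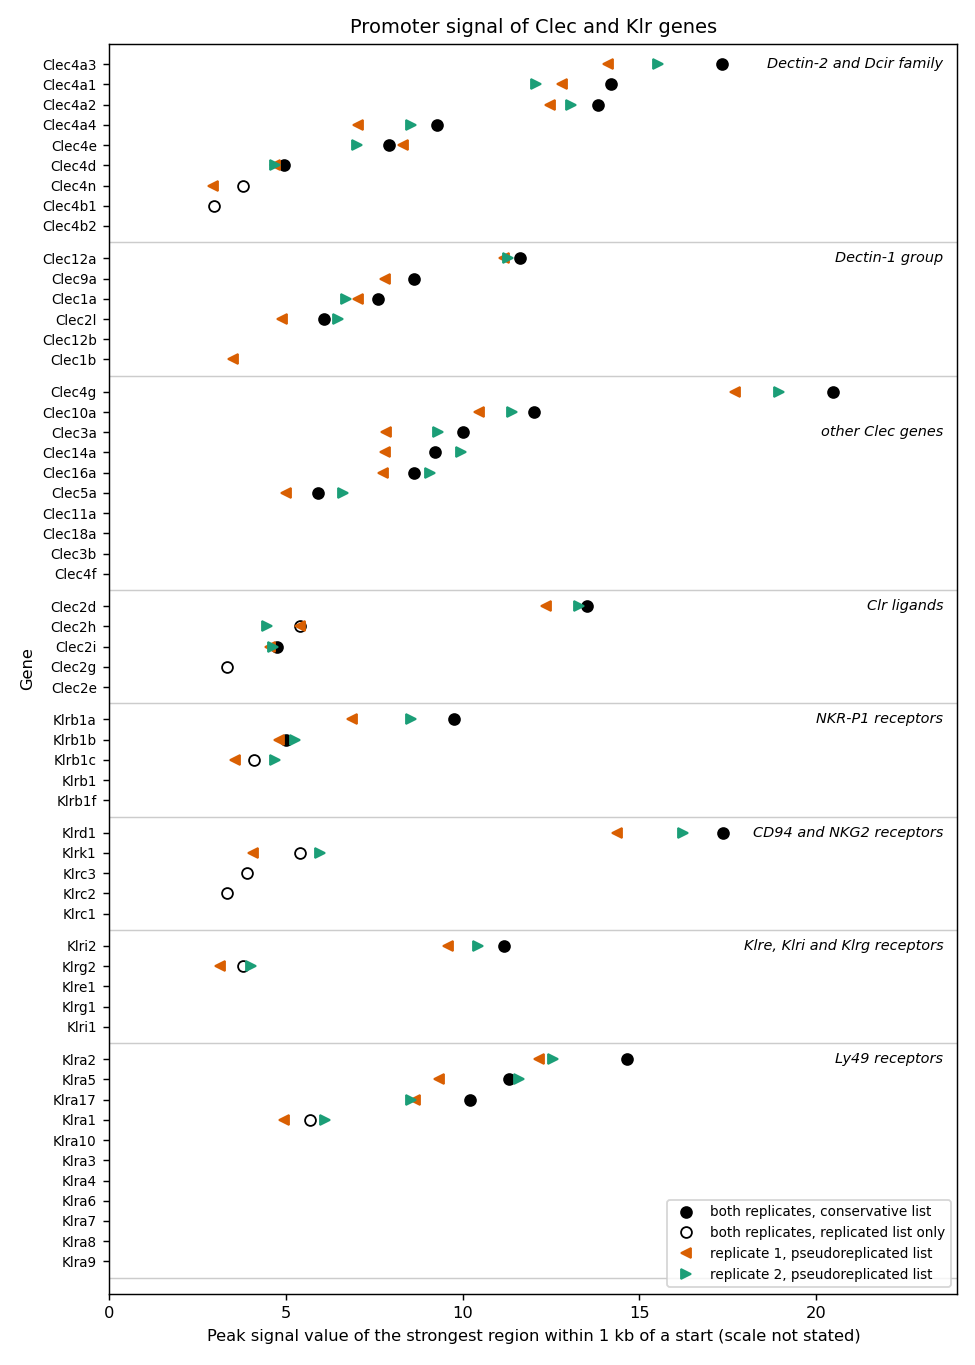
Signal value (horizontal axis, scale not stated) of the strongest region within 1 kb of a start of each of the 56 Clec and Klr genes (rows, by family). Black circles are the conservative list of both replicates, open circles genes found only in the replicated list, and triangles the pseudoreplicated lists of replicates 1 and 2; rows without a symbol had no region in these 4 lists. Clec4g, Klrd1 and Clec4a3 have the highest signals, and 7 of the 11 Ly49 genes have no symbol.

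The Dectin-2 and Dcir family, whose 9 genes lie side by side on chromosome 6, was open at 6 of them. Its strongest promoters were those of the Dcir genes, which encode receptors of dendritic cells and macrophages. Clec4a3 had a signal of 17.3 in both replicates combined, 14.1 in replicate 1 and 15.5 in replicate 2. Clec4a1 had 14.2 combined, 12.8 in replicate 1 and 12.1 in replicate 2. Clec4a2, which encodes the inhibitory receptor Dcir1, had 13.8 combined, 12.5 in replicate 1 and 13.1 in replicate 2. In these 3 genes each replicate's own list held the promoter region, and its signal was higher in replicate 2 for 2 of them. Clec4a4, which encodes the inhibitory receptor Dcir2 of a dendritic cell subset, had a lower signal of 9.28, and only replicate 2 held it in its own IDR-thresholded list, at 8.55. Clec4e, the receptor Mincle for the mycobacterial cord factor, had 7.91, with 8.32 in replicate 1 and 7.01 in replicate 2. Clec4d, its partner Mcl, was near the low end at 4.95 and was absent from both replicates' own IDR-thresholded lists. Clec4b1, Clec4b2 and Clec4n, the last of them Dectin-2, a receptor for fungal mannans, had no conservative region within 1 kb of a start. The replicated list, a less strict list of both replicates, held weak regions at Clec4b1, with a signal of 2.97, and at Clec4n, with 3.79.

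In the Dectin-1 group, as drawn here, 4 of 6 genes were open. Clec2l was counted in it, though that gene has a Clec2 symbol, like the Clr genes, and lies apart from the others on chromosome 6. Clec12a, an inhibitory receptor of myeloid cells for uric acid crystals, led with 11.6 combined, 11.2 in replicate 1 and 11.3 in replicate 2. Clec9a, the receptor Dngr1 by which dendritic cells take up dead cells, had 8.61 combined, 7.79 in replicate 1 and 8.44 in replicate 2. The edge of this region lay 990 bp from the start in the conservative list and beyond 1 kb in both lists of replicate 2. Its summit lay 1339 bp upstream of the Clec9a start, in an exon of the overlapping gene Clec1b. Clec1a, a receptor for fungal melanin, had 7.61, and Clec2l had 6.08, and neither was in either replicate's own IDR-thresholded list. Clec1b, the platelet receptor Clec-2 for podoplanin, and Clec12b had no conservative region within 1 kb of a start. Clec7a, which encodes Dectin-1 itself, is typed as a polymorphic pseudogene in this annotation and so is no member, and a region with a signal of 5.02 lay within 1 kb of its start.

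Of the 10 other Clec genes 6 were open. Clec4g, a lectin of sinusoidal endothelium in liver and lymph node, had the highest promoter signal of all members, at 20.5 combined, 17.7 in replicate 1 and 18.96 in replicate 2. That value exceeded 99.7% of open protein-coding genes. Its region (chr8:3718396-3719047) has its edge 843 bp and its summit 1187 bp upstream of the nearest start of Clec4g, inside an intron of a longer transcript, so it met the rule by its edge and not by its summit, as did those of Klrb1a, Clec9a and Clec3a. It is therefore also among the regions more than 1 kb from a start counted further on. Clec10a, a galactose-binding lectin of macrophages, followed with 12.0 combined, 10.4 in replicate 1 and 11.4 in replicate 2. Clec3a, Clec14a and Clec16a lay between 8.63 and 10.02. Clec14a is known from endothelium and Clec16a from lysosome and mitochondrion turnover. Clec5a, a myeloid receptor that signals through Dap12, was lowest at 5.90. Clec3b, Clec4f, a receptor of liver macrophages, Clec11a, a secreted growth factor of bone, and Clec18a were not open.

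Among the Clr genes, whose products are ligands of the NKR-P1 receptors, 2 of 5 were open. Clec2d, the ligand Clr-b, had 13.5 combined, 12.4 in replicate 1 and 13.3 in replicate 2, with the summit 2 bp from the annotated start. Clec2i, the ligand Clr-g, had 4.74, the lowest value of any open member. Clec2h and Clec2g had regions in the replicated but not the conservative list, at 5.38 and 3.34, and Clec2e had none. The receptors themselves were also open at 2 of 5 genes. Klrb1a had 9.74, and Klrb1b, the inhibitory receptor for Clr-b, had 4.99 in a region that also lay within 1 kb of a start of the readthrough gene Gm44511. Neither was in a replicate's own IDR-thresholded list. Klrb1c, the NK1.1 antigen of C57BL/6 mice, had no conservative region within 1 kb of a start and a signal of 4.09 in the replicated list.

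Klrd1 was the exception among the CD94 and NKG2 receptors. It encodes CD94, the shared partner of the NKG2 chains, and its promoter had 17.4 combined, 14.4 in replicate 1 and 16.2 in replicate 2, above 97.1% of open genes. None of its 4 relatives in this group was open in the conservative list. Klrk1, which encodes NKG2D, had 5.38 in the replicated list, Klrc3 had 3.90 and Klrc2, which encodes the activating NKG2C, had 3.34. Klrc1, which encodes the inhibitory NKG2A, had no region within 1 kb in any list. Of the Klre, Klri and Klrg genes only Klri2, an activating partner of Klre1, was open, with 11.2 combined, 9.57 in replicate 1 and 10.4 in replicate 2. Klrg1, an inhibitory receptor of mature natural killer and effector T cells that binds cadherins, had no promoter region in any list.

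Of the 11 Ly49 genes 3 were open in the conservative list. Klra2, which encodes Ly49B, had 14.7 combined, 12.2 in replicate 1 and 12.6 in replicate 2. Klra5, which encodes Ly49E, had 11.3 combined, 9.34 in replicate 1 and 11.6 in replicate 2. Klra17, which encodes Ly49Q, had 10.2 combined, 8.65 in replicate 1 and 8.55 in replicate 2. Ly49B and Ly49Q are known in mouse from myeloid cells and plasmacytoid dendritic cells, and the other Ly49 receptors mainly from natural killer cells and subsets of T cells. The 8 that were not open are Klra6, Klra4, Klra8, Klra9, Klra7, Klra10, Klra3 and Klra1. Klra8 encodes Ly49H, the activating receptor for a mouse cytomegalovirus protein, and Klra1, Klra3 and Klra9 encode the class I receptors Ly49A, Ly49C and Ly49I. Klra1 had 5.68 in the replicated list and Klra7 had 3.78 in the archived list alone.

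The sequences around the promoter summits of several open members shared a short word. The stretches below come from the 101 bases centred on the summit, on the strand of the gene, without bases of annotated exons, and are shown because they carry a word that recurs. Capitals mark that word, TTCCTCTTT, or its reverse complement AAAGAGGAA, and the letters are those of the reference genome.
Clec4a3, mm10 chr6:122952541-122952626, plus strand: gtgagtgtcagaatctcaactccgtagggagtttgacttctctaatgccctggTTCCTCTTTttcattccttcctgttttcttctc
Clec4a1, mm10 chr6:122921592-122921692, plus strand: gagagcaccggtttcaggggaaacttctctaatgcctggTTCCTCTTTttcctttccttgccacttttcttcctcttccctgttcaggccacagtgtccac
Clec4a2, mm10 chr6:123123266-123123315, plus strand: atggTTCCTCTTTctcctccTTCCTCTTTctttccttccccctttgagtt
Clec4a4, mm10 chr6:122990013-122990113, plus strand: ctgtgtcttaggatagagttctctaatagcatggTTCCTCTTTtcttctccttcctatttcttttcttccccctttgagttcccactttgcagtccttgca
Clec5a, mm10 chr6:40585822-40585914, minus strand: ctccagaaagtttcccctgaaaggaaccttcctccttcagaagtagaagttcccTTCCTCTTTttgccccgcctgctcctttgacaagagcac
Clec10a, mm10 chr11:70166508-70166608, plus strand: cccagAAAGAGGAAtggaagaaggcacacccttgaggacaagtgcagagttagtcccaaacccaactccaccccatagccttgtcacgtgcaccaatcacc
Klrd1, mm10 chr6:129591655-129591755, plus strand: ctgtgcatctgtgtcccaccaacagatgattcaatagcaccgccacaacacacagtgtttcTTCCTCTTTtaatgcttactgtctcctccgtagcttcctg
Klra2, mm10 chr6:131247366-131247466, minus strand: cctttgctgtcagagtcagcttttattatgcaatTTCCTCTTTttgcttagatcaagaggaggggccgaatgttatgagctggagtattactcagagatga
Klra17, mm10 chr6:129876688-129876788, minus strand: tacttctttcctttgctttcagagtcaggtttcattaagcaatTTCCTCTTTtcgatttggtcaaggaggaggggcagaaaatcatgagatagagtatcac
The word was taken from 7 windows after they had been seen, those of Clec4a1, Clec4a2, Clec4a3, Clec12a, Klrd1, Klra2 and Klra17, as the longest that all share. Beyond those 7, it was found in 4 of the other 19 member promoter regions (21.1%), at Clec4a4, Clec5a, Clec9a and Clec10a, of which Clec4a4 is a close relative of genes that chose it. All 26 member promoter regions gave 11 matches (42.3%), but 7 of these were fixed by the choice of the word. The share that was not fixed, 21.1%, stands beside 1.18% of the 15556 promoter regions of all protein-coding genes. In the cluster regions more than 1 kb from a start the word was found in 6.54% of 107, against 3.58% of 52606 such regions in the genome. The reverse complement holds GGAA, the core that ETS factors such as PU.1 recognise, and a match is a description of letters and not a binding site. The windows that chose the word were read on the strand of the gene, so those 7 members hold it on that strand by construction. Of the 4 others, Clec4a4, Clec5a and Clec9a held it on that strand and Clec10a on the other. In Klrd1, Klra17, Klra2, Clec5a and Clec4a3 the centre of the word was 46 to 69 bp upstream of the nearest start. Clec4a3 has 3 starts, and its summit lay 61 bp downstream of a different one, so the position depends on the start used. Clec4a2 held the word at 42 and at 26 bp upstream. The word was farther upstream in Clec10a (106 bp), Clec4a1 (213 bp), Clec4a4 (316 bp) and Clec9a (1368 bp). In Clec12a it was 237 bp downstream of a start, inside the first exon. A longer form, TGGTTCCTCTTT, was shared by Clec4a1, Clec4a2, Clec4a3 and Clec4a4 and was in 0.058% of all promoter regions, theirs included. Klra2 and Klra17 shared GCAATTTCCTCTTTT, which was in 0.019% of all promoter regions, theirs included, and their RefSeq promoter sequences (GRCm38.p6) were 78.3% identical over 281 aligned columns. Members with copied promoters share sequence and are not separate observations. Median GC content of these windows was 48.0% in member promoter regions and 63.4% in all promoter regions, and its part in the share was not tested.

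Within 50 bp of the summits 13 listed motifs were sought on both strands. Their letters were AGGAAGT for PU.1, CCGGAAG for other ETS factors, TGTGGT for RUNX, AGATAA for GATA, TTGCNNAA for C/EBP, TGANTCA for AP-1 and NF-E2, CAGCTG for an E-box, GGTGTGA for T-box factors, TATGTAA for NFIL3, TTCNNNGAA for STAT and TATAAA for the TATA box, and IRF and CTCF were sought by their consensus. At least 1 motif was in 14 of 26 member promoter regions (53.8%), against 35.1% of all promoter regions and 60.4% of all regions away from starts. Median GC content of these 3 sets was 48.0%, 63.4% and 51.5%, and its part in the shares was not tested. The C/EBP letters were in 4 (15.4%), against 3.23% of all promoter regions. Klra2 and Klra17 were among the 4, and their promoter sequences are alike, so these are not separate matches. The RUNX letters were in 3 (11.5%), against 7.17%. The listed PU.1 letters were in 1 (3.85%), against 6.57%. The reverse complement of the shared word holds GGAA but not the full listed letters, so the word alone was not counted here. These motif counts are small. With 100 bp each side of the summit the RUNX letters were in 11 member promoter regions (42.3%), against 12.1% of all promoter regions. In the cluster regions away from starts RUNX letters were in 25.2%, against 20.3% of all regions away from starts, and PU.1 letters in 16.8%, against 15.03%.

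In the clusters 107 of 125 regions had their summit more than 1 kb from a start (85.6%), against 52606 of all 67395 regions (78.1%). The Clec4 cluster (chr6:122921848-123289870) spans 368 kb from Clec4a1 to Clec4e and held 18 regions, or 48.9 per Mb. The natural killer gene complex (chr6:128609227-130386874) spans 1778 kb from Klrb1a to Klra1, with 33 members and 42 genes in all, and held 107 regions, or 60.2 per Mb. The assembled chromosomes as a whole held 24.7 regions per Mb and chromosome 6 held 26.1. Of the 107 regions of the complex 61 were intergenic (57.0%), against 39.6% of those on chromosome 6. Another 24 were intronic (22.4%), against 36.5%, and 9 exonic (8.41%), against 4.37%. The last 13 had their summit within 1 kb of a start (12.2%), against 19.6%. Median signals were 8.81 in the Clec4 cluster and 8.03 in the complex, against 8.35 over all regions. Klra2 lies beyond the complex and Klrg1 alone, so neither was counted in a cluster.

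**Figure D2:**
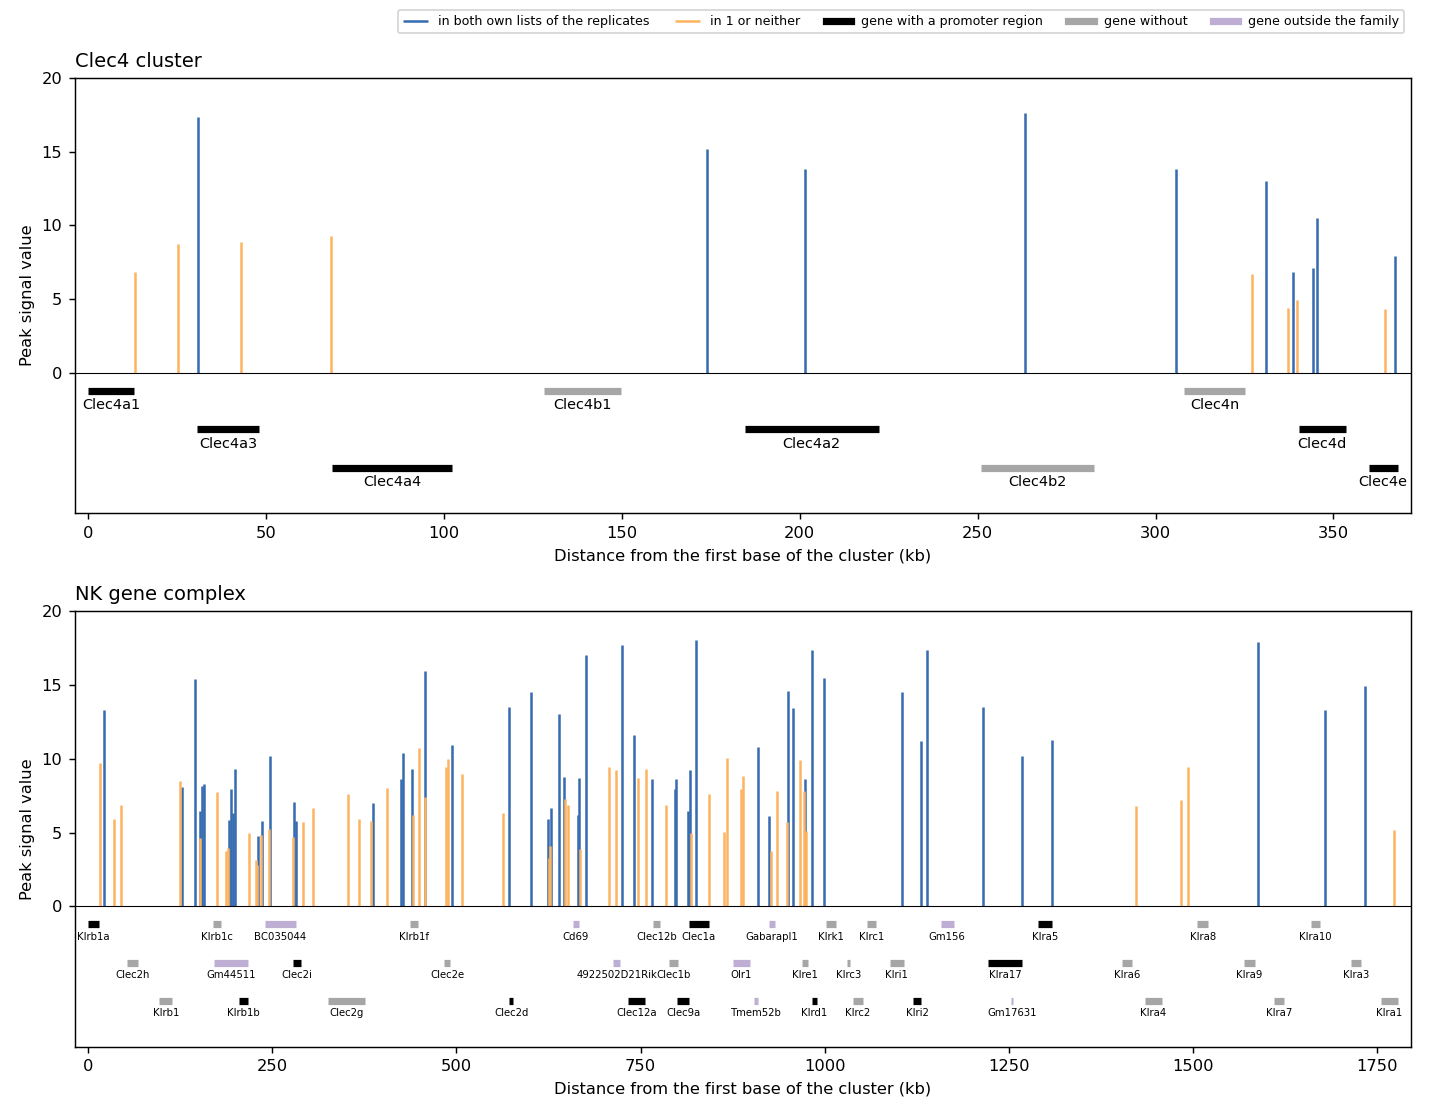
Accessible regions of the conservative list (vertical lines; height is the signal value, scale not stated) along the Clec4 cluster and the natural killer gene complex, in kb from the first base of each; blue lines are regions in the own IDR-thresholded lists of both replicates and orange lines those in 1 or neither. Bars below are genes. Regions are dense from Klrb1a to Klrd1 and sparse from Klrk1 to Klra1, a span that ends with the Ly49 genes from Klra17 on.

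The density was uneven along the complex. The Ly49 array from Klra17 to Klra1 (556 kb) held 9 regions, or 16.2 per Mb, and the rest of the complex held 98, or 80.2 per Mb. Sparseness was not particular to the array, because regions were already sparse before it, from Klrk1 on. The longest stretches of the complex without a conservative region were 113 kb around Klra6, 104.6 kb that hold Klrk1, Klrc3, Klrc2 and Klrc1, and 94.1 kb that hold Klra8 and Klra9. In the replicated list these held 1, 7 and 0 regions. The strongest region of the complex lay in an intron of Clec1a, 17421 bp downstream of its start (chr6:129434178-129434667), with 18.01 combined, 15.7 in replicate 1 and 17.6 in replicate 2. A region in an intron of Clec4b2 (chr6:123184908-123185384), a gene whose promoter was in no list, had 17.6 combined, 15.7 in replicate 1 and 13.7 in replicate 2. A region upstream of Klri2 (chr6:129747046-129747959) had 17.3 combined, 14.9 in replicate 1 and 17.3 in replicate 2. Each of the 3 exceeded at least 98.35% of all regions in signal. Of the 9 other genes inside the complex 6 were open, beside 60.8% of all genes: Cd69, an early activation antigen with a lectin domain, at 8.70, Olr1, a receptor for oxidised lipoprotein, at 8.82, Gabarapl1, an autophagy protein, at 6.14, and also BC035044, 4922502D21Rik and Gm44511. Tmem52b, Gm156 and Gm17631 were not open.

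Members received 127 regions more than 1 kb from every start when each was given to the nearest start within 100 kb. That is a mean of 2.27 per member, against 2.06 over all protein-coding genes, with a median of 1 in both. None was given to 21.4% of members, against 39.7% of all genes. Klrb1c and Clec16a had the most, with 10 each, followed by Klrb1f with 8. Some genes without an open promoter had strong regions nearby. Klrg1 had a region 23841 bp downstream of its start with a signal of 19.02, Klrk1 a region 14231 bp downstream of its start with 15.5, and Klrb1 a region 30985 bp upstream with 15.4. The nearest start need not be the gene a region acts on.

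Of the 8 Ly49 genes without an open promoter, 4 had a region between 3 and 7 kb upstream of the start: Klra9 (chr6:130197408-130197950), Klra3 (chr6:130341669-130342668), Klra10 (chr6:130288002-130288774) and Klra6 (chr6:130031492-130032021). This window was chosen after the regions had been seen, and the share of all protein-coding genes with such a region was not counted. The region of Klra9 lay 4471 bp upstream and had 17.9 combined, 15.5 in replicate 1 and 15.9 in replicate 2. That of Klra3 lay 4561 bp upstream and had 14.96 combined, 13.6 in replicate 1 and 14.0 in replicate 2. That of Klra10 lay 6269 bp upstream and had 13.3 combined, 12.5 in replicate 1 and 12.4 in replicate 2. The region of Klra6, at 4940 bp, was weaker, at 6.83 combined and 6.47 in replicate 1, and replicate 2 held it in its pseudoreplicated list alone, at 6.27. An upstream promoter called Pro1 has been described in mouse for several Ly49 genes, and whether these regions are it was not tested.

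These 4 regions overlapped copies of the same sequence. The summits of Klra9, Klra10 and Klra3 lay within the stretch that matches 201 bases around the Klra3 summit, and that of Klra6 lay 130 bp outside it. The 101 bases around the Klra3 summit are given with the stretches of other Ly49 genes that align to them, all on the minus strand, which is the strand of the genes. Capitals mark bases that differ from the aligned Klra3 base or have no partner there.
Klra3, mm10 chr6:130342085-130342185, minus strand: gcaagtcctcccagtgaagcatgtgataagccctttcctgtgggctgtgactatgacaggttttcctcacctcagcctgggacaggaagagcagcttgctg
Klra10, mm10 chr6:130288179-130288279, minus strand: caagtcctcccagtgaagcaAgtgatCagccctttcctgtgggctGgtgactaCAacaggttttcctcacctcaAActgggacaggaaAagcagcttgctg
Klra6, mm10 chr6:130031616-130031714, minus strand: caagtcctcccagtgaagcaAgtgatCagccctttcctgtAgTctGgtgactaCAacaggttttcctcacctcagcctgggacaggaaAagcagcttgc
Klra7, mm10 chr6:130237703-130237802, minus strand: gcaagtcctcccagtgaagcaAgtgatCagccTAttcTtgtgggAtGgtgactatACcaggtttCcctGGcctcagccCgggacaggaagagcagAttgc
Klra4, mm10 chr6:130075126-130075226, minus strand: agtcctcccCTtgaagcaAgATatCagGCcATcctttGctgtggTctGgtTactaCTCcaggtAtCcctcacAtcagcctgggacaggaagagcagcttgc
Klra8, mm10 chr6:130140130-130140230, minus strand: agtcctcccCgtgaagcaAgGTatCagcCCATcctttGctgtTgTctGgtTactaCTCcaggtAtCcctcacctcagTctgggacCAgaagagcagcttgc
The Klra9 copy had the same 101 bases as Klra3, so reads that lie wholly within these bases cannot be told apart between the genes, and the signals of both are uncertain. Of the 31-base words in the whole region 43.7% occurred once in the genome at Klra9 and 55.1% at Klra3. The labels give neither read length nor mapping, and how the signal divides between the genes was not tested. Over the 201 bases centred on the Klra3 summit, the best match was 98.0% identical at Klra9, 89.1% at Klra6 and 87.6% at Klra5, and at Klra10 it was identical at 144 of 160 aligned columns. Each of these 4 had a conservative region there. Klra7, at 84.3%, and Klra1, at 81.0%, had only weak regions of the replicated list over the match, with 5.01 and 4.77. The Klra7 match lay 4429 bp upstream of the most upstream start, and the Klra1 match lay 47 bp upstream, in the promoter. Klra4, at 78.1%, and Klra8, at 77.1%, had none, and these are the activating receptors Ly49D and Ly49H. No match of 100 or more aligned columns was found from 12 kb upstream to 1 kb downstream of the starts of Klra17 and Klra2. The Klra5 match overlaps its promoter region itself, whose summit was 125 bp outside the match, 176 bp upstream of a start in GENCODE and 4602 bp upstream of the RefSeq start. The open promoter of Klra5 is therefore set by which annotated start is used, and with the RefSeq start it would be an upstream region like those of Klra3 and Klra9.

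**Figure D3:**
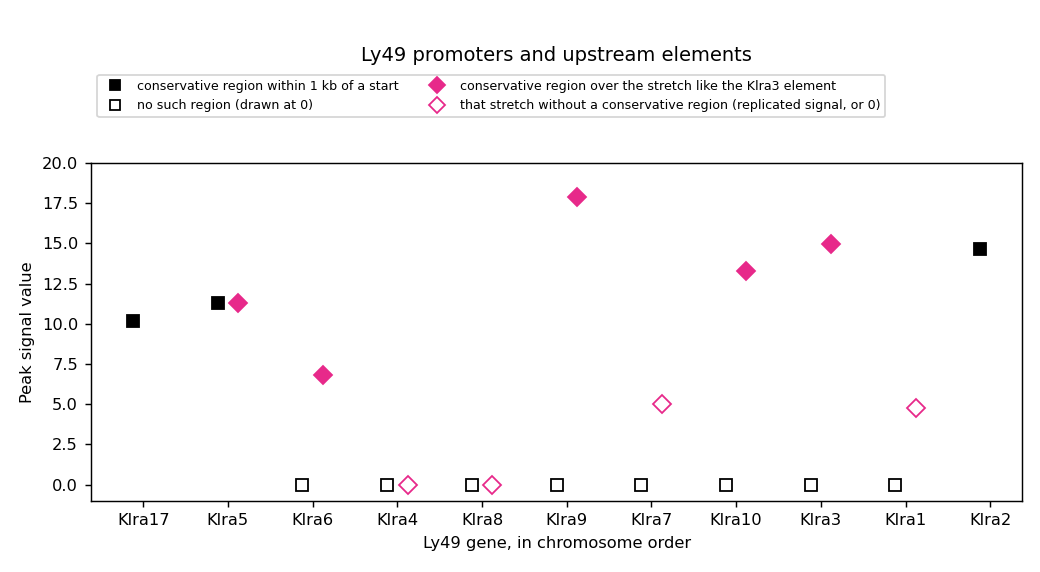
Signal value (scale not stated) at the 11 Ly49 genes in chromosome order: squares are the promoter and diamonds the stretch that aligns with the Klra3 upstream element; filled symbols are conservative regions, open squares mark no conservative promoter region, and open diamonds show the replicated signal or 0. For Klra5 both symbols are the same region. Diamonds are highest at Klra9, Klra3, Klra10 and Klra5.

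Copied sequence limits what the lists can show here. The share of 31-base words found only once in the genome was computed for the 1 kb either side of each start. Its median was 94.4% over the 56 members and 97.7% over all protein-coding genes. It was 96.6% in the 25 open members and 92.0% in the 31 others, beside medians of 98.4% in all protein-coding genes with a promoter region and 95.4% in those without. The lowest shares were those of Klrc3 (15.2%), Klrc2 (16.9%), Klra8 (43.5%), Klra9 (54.1%) and Klra10 (59.7%), none of which was open. At these genes closed chromatin and reads that could not be placed cannot be told apart. The Ly49 array as a whole was 62.7% unique, the Clec4 cluster 66.0% and the complex 73.0%.

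**Figure D4:**
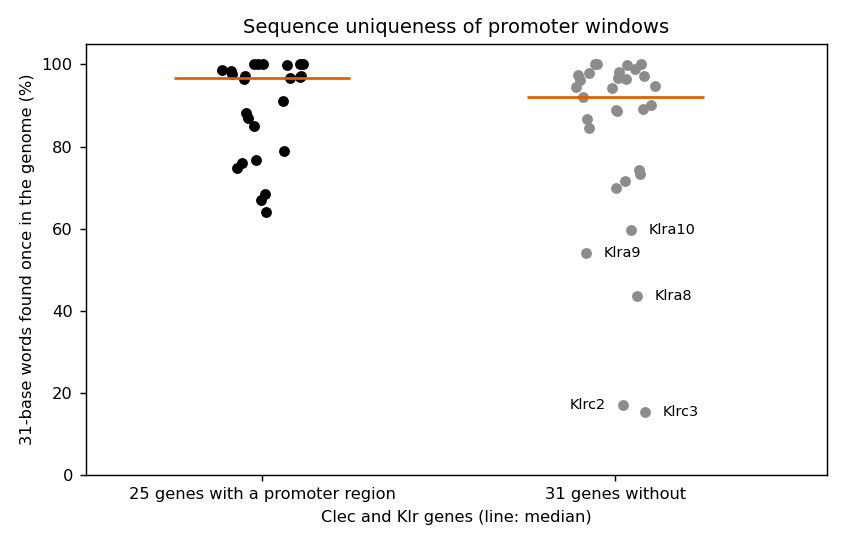
Share of 31-base words within 1 kb of the starts that occur once in the genome (vertical axis, %), for each of the 25 members with a promoter region (left) and the 31 without (right); the line is the median. The open members range from 64.03% to 100%, and the 5 members below 60% are all among those without a region.

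The replicates held much the same promoters. All 17 member promoter regions in the own IDR-thresholded list of replicate 1 met a region of replicate 2 (100%, exact 95% interval 80.5 to 100%), against 85.0% of all its promoter regions. Of the 18 of replicate 2, 16 met a region of replicate 1 (88.9%, 65.3 to 98.6%), against 96.9%. These intervals cover counting error only. In the clusters 64 of 86 regions of replicate 1 (74.4%) and 65 of 73 of replicate 2 (89.0%) met the other, against 72.3% and 91.8% of all regions. The 2 own lists each held 17 open members, beside 56.3% of all genes in replicate 1 and 52.0% in replicate 2, and 16 members were open in both. By the 1 kb rule Clec9a counted in replicate 1 alone, because of where the edge of its region fell, though the region was in both lists. Clec4a4 counted in replicate 2 alone, and the own IDR-thresholded list of replicate 1 did not hold its region. In the less strict pseudoreplicated lists, signals of the 29 members with a promoter region in both had a Spearman rho of 0.953, beside 0.937 over 13806 genes, and replicate 2 was higher in 24 of the 29, beside 62.8% of all genes.

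Less strict lists called more members, as they did for all genes. The replicated list held 35 open members, beside 68.3% of all genes, and the archived list, derived from earlier files per the deposited notes, held 38, beside 73.8%. The pseudoreplicated lists of replicate 1 and replicate 2 held 32 and 29, beside 66.0% and 63.9%, and that of the pooled replicates held 33, beside 68.5%. The ranked list, before its threshold, held 35, beside 68.4%. The series' other IDR-thresholded list also held 25, beside 60.7%, with Klrk1 and Klra1 in place of Clec5a and Klrb1b. The promoters of 16 members were in every list and those of 18 in no list, and the same shares over all genes were not counted. The 18 are Klrb1, Klrb1f, Klrc1, Klre1, Klri1, Klrg1, 6 Ly49 genes, Clec2e, Clec4b2, Clec4f, Clec11a, Clec12b and Clec18a. The archived list differed most at Clec4g, with 3.32 there against 20.5 in the replicated list. Each value is that of the strongest region within 1 kb of a start. Whether both belong to the same region was not looked up, and the cause was not tested.

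**Figure D5:**
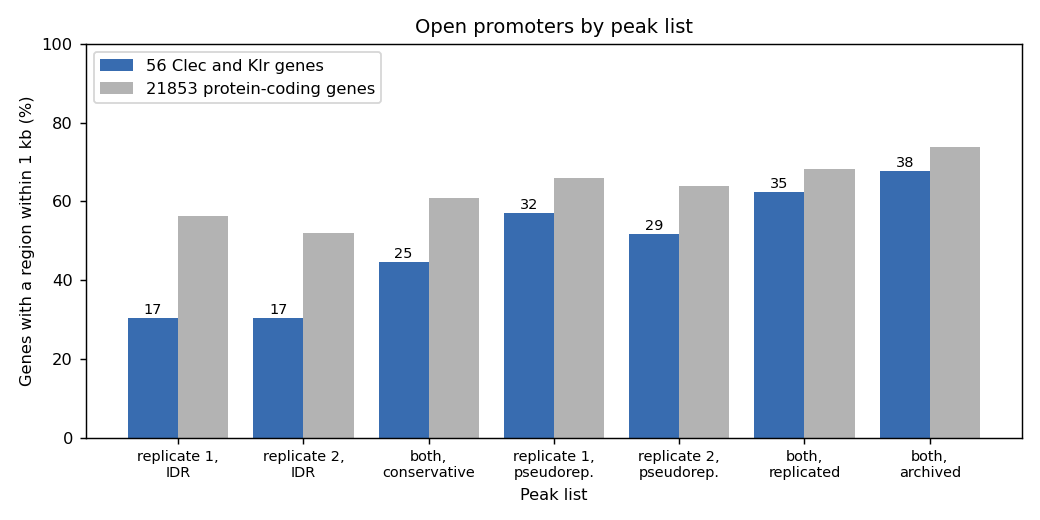
Share of genes with a region within 1 kb of a start (vertical axis, %) in 7 of the peak lists, for the 56 Clec and Klr genes (blue, with the number of genes above the bar) and for the 21853 protein-coding genes (grey). The blue bar is the lower of the pair in each list.

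Other rules for an open promoter were run on the conservative list. In the upper 50% of conservative regions by signal 18 members were open, beside 43.7% of all genes. With a window of 500 bp 21 were open, beside 58.9%, and with 2500 bp 29, beside 64.8%. With starts of all transcripts of a gene 27 were open, beside 62.3%, and with the summit itself in the 1 kb window 21, beside 59.7%. The members' share was below that of all genes under each of these rules.

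The thresholds fell close to several members. In the ranked list of peaks, where the conservative list takes scores of at least 540, the lowest open members were Klrb1b at 616 and Clec5a at 648, and the highest members outside were Klra1 at 514 and Klrb1c at 511. By distance, the region edge was 990 bp from the start for Clec9a and 1051 bp for Clec11a, which was therefore not called open.

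The partners and ligands of these receptors, and markers of the cell types that use them, were counted over gene lists in the conservative list. The lists are short, and each count stands beside the 60.8% of all protein-coding genes with a promoter region. Promoter regions were at 15 of 16 adaptor and signalling genes. They were at Fcer1g, Tyrobp and Hcst, whose products pair with the activating receptors, at 6.83, 7.27 and 4.32, and at Syk and Card9, at 11.5 and 8.75, and not at Zap70. Of 7 genes for ligands of natural killer receptors 6 had one, with H2-K1, a class I molecule bound by Ly49 receptors, at 15.004, and H60c had none. Raet1e and H60b had the same signal, 12.7, and may have been counted for the same promoter region. Of 20 other genes with a C-type lectin domain 14 had one, with Ly75, an endocytic receptor of dendritic cells, highest at 14.3. All 8 progenitor markers had a promoter region, among them Kit at 8.94, Cd34 at 7.92 and Mpo at 5.02. The own IDR-thresholded lists held 7 of these markers in replicate 1 and 6 in replicate 2, and neither held Mpo. Of 7 natural killer cell markers 3 had one, Gzmb at 13.3, Prf1 at 9.86 and Itga2 at 9.55, while Ncr1, Eomes, Tbx21 and Il2rb had none. Of 7 dendritic cell and macrophage markers 5 had one, and Xcr1 and C1qa had none, and all 4 platelet markers had one. Their part in the results of the Clec and Klr genes was not tested.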

How the data were processed

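From 2 ATAC-seq libraries of common myeloid progenitors, 10 of the 13 deposited mm10 peak lists were read. Aligner, peak caller and any read shift were not given in the sources used here. Per the deposited notes, lists of a replicate derive from its alignments and lists of the series from both. The deposited signal value of each peak, on a scale not stated, ranked and described regions within a list. The deposited score of the ranked list placed members beside the IDR threshold. Read counts are not among the values, so depth is unknown and no count was tested.

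Overlapping peaks were merged on chromosomes 1 to 19, X and Y, keeping the summit and signal of the strongest. Starts were those of protein-coding transcripts of GENCODE M21. A cluster was a run of at least 2 members with gaps under 500 kb. An overlap of at least 1 bp counted as shared, and intervals were exact binomial. Sequence came from GRCm38.p6, and 47 of 56 members matched a RefSeq promoter. Local alignment scored 2 for a match, -3 for a mismatch, -5 to open and -2 to extend a gap. Words of 31 bases were counted on both strands of the assembled chromosomes. Counts stand beside those over all protein-coding genes, and no test was made on the members. Alternatives were other peak lists, either replicate alone, the upper 50% of regions by signal, promoter windows of 500 and 2500 bp, all transcript starts, summits in place of edges, cluster gaps of 250 and 1000 kb, assignment within 50 kb, 50% reciprocal overlap and motif windows of 100 bp. Any member could be named, and other genes from the lists or inside a cluster.

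Members and lists were chosen with earlier results of these data known. Merging, promoter calls, word counts and motif search were tested on simulated data with known answers. The tools were pandas 2.3.3, NumPy 2.4.6 and SciPy 1.17.1 under Python 3.11.15, with numba 0.67.0 for word counts, Biopython 1.88 for alignment and matplotlib 3.10.9 for plots.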

Additional observations from a re-analysis of the deposited data

How the results depend on the processing

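The count of open members stayed within 1.5 times its value of 25 under all alternatives but the archived list, which gave 38. Across the other lists and rules it ran from 17 to 35. Counts of regions depended more on the list. The 125 cluster regions became 200 in the replicated list, 345 in the archived list, 197 in the pseudoreplicated list of pooled replicates, 60 in the upper 50% and 434 over the whole interval around the clusters, which holds many other genes. The 127 distal regions became 209, 390, 206 and 64 in the same lists and subset. Leaving out a replicate gave 17 open members either way, 73 to 86 cluster regions and 71 to 92 distal regions, the lower value each time without replicate 1, so that replicate 2 stood alone. In the pseudoreplicated lists the share of member promoter regions that met the other replicate was 88.9% for replicate 1 (32 of 36) and 100% for replicate 2 (31 of 31). With 100 bp each side of the summit 20 member promoter regions held a listed motif (76.9%), against 53.2% of all promoter regions. No paired analysis was possible because there is 1 group and no contrast. Unknown depth and copied sequence limit what a missing region shows.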
